A study of Mus musculus with 24 samples.

Results

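The genes described here encode the nuclear subunits of the mitochondrial respiratory chain and of ATP synthase. Members were every gene on the array whose symbol begins with Ndufa, Ndufb, Ndufc, Ndufs, Ndufv, Uqcr, Sdh (a to d), Cox4 to Cox8 or Atp5, without the Ndufaf assembly factors. The array design gave 85 such genes of 20022 named genes, through 114 of 55681 probes, and each gene was read from its brightest probe. They comprised 38 genes of complex I, 4 of complex II, 8 of complex III, 18 of complex IV and 17 of ATP synthase, which is called complex V here. The rule used gene names only and no measured value.

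Complexes I to IV pass electrons from NADH and succinate to oxygen in the inner mitochondrial membrane, and the proton gradient built by complexes I, III and IV drives ATP synthase. Complex I takes electrons from NADH, complex II from succinate, complex III passes them to cytochrome c, and complex IV, cytochrome c oxidase, reduces oxygen. Most subunits are encoded in the nucleus, and a few core subunits in the mitochondrial genome. Naive T cells rely largely on oxidative metabolism, and T cell activation brings mitochondrial biogenesis together with a rise in glycolysis. The subunits with the symbols listed above are nuclear, and the mitochondrially encoded ones were not analysed here.

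The series held 24 two-colour arrays, 1 per condition, of mouse CD4+ T cells differentiated in vitro to Th1 (14 arrays) or Th2 (10 arrays) from female C57BL/6 mice. Cells were given DMSO vehicle (6 arrays), 50 or 500 nM JQ1, which blocks the acetyl-lysine pocket of BET bromodomain proteins, or 1 or 10 µM flavopiridol, which inhibits the kinase of the elongation factor P-TEFb, and were left unstimulated or reactivated. Drug treatment lasted 6 hr, with additional Th1 arrays for DMSO and 500 nM JQ1 at 24 hr. For the Th2 DMSO arrays the title states 24 hr and the source name 6 hr, so their time is unclear. Every array carried sample RNA in Cy3 and RNA of naive CD4+CD62L+CD25-CD44lo T cells from lymph nodes and spleens in Cy5, without dye swaps, and all values are log2 ratios of sample over this naive reference. The ratios were background-corrected and adjusted within each array by loess, which centres the bulk of the probes near 0. Drug effects were estimated over 4 contexts (Th1 and Th2, each unstimulated and reactivated) and reactivation over 3 DMSO pairs, with limma and Benjamini-Hochberg adjustment over all genes tested, and a gene was called higher or lower at an adjusted p below 0.05. Since no condition had a replicate array, p-values of the reactivation fit measure how uniformly a change recurred over the 3 pairs. Those of the drug fits measure recurrence over the 4 contexts. Both doses of a drug and DMSO entered the same fit, so arrays of the other dose also enter the error. The comparison with naive cells used the reactivation fit, which removes differences between pairs and between activation states. Its SE and p-values therefore do not measure the spread over the 6 DMSO arrays. The number of arrays limits the precision.

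Several facts of the arrays touch the results. On flavopiridol arrays 36.3 to 42.2% of the probes were well above background in Cy3, against 49.5 to 52.6% on DMSO arrays, and after loess the 10 spike-in RNAs lay between -0.83 and -0.29 on DMSO arrays, between -0.31 and 0.05 on the Th1 and between 0.39 and 0.62 on the Th2 flavopiridol arrays. On 500 nM JQ1 arrays they lay between -0.46 and 0.89, and the highest value of all arrays was that of the reactivated Th1 array with 500 nM JQ1 at 6 hr. Loess does not use the spike-ins, and counts with the spike-ins as the reference are given beside the drug results. In such bulk samples fewer cells of a type and less RNA per cell cannot be told apart. T cell markers (Cd3e, Cd3g, Cd4) were above background on all arrays. The reactivated Th2 DMSO array carried the Th1 markers Tbx21 at 4.64, Ifng at 6.20 and Cxcr3 at 4.11, whereas the unstimulated one had Tbx21 at -0.02, and the reactivated Th2 array with 50 nM JQ1 had Tbx21 at 3.34. The Th2 markers followed the label on the same 2 arrays, with Il4 at 8.02 and 7.62, Il5 at 3.66 and 3.44, Gata3 at 2.64 and 2.89 and Ccr8 at 1.71 and 1.40, above the reactivated Th1 DMSO arrays (Il4 3.07 and 4.50, Il5 0.46 and 0.68, Gata3 -0.33 and 0.55, Ccr8 0.03 and 0.07). Il12rb2, a Th1 marker, was at -0.20 and -0.12. These 2 arrays thus carried markers of both cell types. Counts of members in the 4 main comparisons are therefore also given from the Th1 arrays alone. B cell markers were present as well, and their summed Cy3 signal (4 genes, log2) was 10.05 to 10.46 in Th1 DMSO, 9.10 to 9.32 in Th1 500 nM JQ1 and 8.81 to 8.98 in Th1 flavopiridol arrays. In Th2 cells it was 11.78 to 12.21, 11.04 to 11.17 and 10.11 to 10.50, respectively, and the part of this difference in the results was not tested. The summed signal of the CD8 markers Cd8a and Cd8b1 was 8.06 to 8.86 in Th1 DMSO, 7.55 to 8.02 in Th1 500 nM JQ1 and 9.09 to 9.34 in Th1 flavopiridol arrays, and that of 4 myeloid markers 13.49 to 13.86, 13.44 to 13.86 and 12.15 to 12.79, and their part was not tested either. Of the 4 myeloid markers, Csf1r and Itgam were above background on all 6 DMSO arrays, Cd14 on 2 and Lyz2 on none, and of the 3 natural killer markers Klrk1 was on 2 and Ncr1 and Klrb1c on none. Csf1r was between -0.48 and -0.07 on DMSO arrays and between 1.09 and 2.06 on flavopiridol arrays, and Itgam between -1.02 and -0.55 and between -3.50 and -1.47. No flavopiridol array shared a slide with its DMSO control, nor did any Th2 JQ1 array, so slide and drug cannot be told apart there. The 6 hr Th1 JQ1 arrays did share the slide of their controls.

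Respiratory chain promoters are known for binding sites of NRF1, of the ETS factor GABP and of YY1. Promoter sequence was found for 69 of the 85 genes (RefSeq, build GRCm38.p6, 250 bases before to 50 after the start). The NRF1 core CGCATGCG was present in 13.0% of these genes and in 2.07% of all 27018 genes with a promoter. The ETS core CCGGAAG was present in 24.6% against 9.93%, and the YY1 core AAGATGGC in 14.5% against 3.19%, each searched on both strands. The end of the ETS core can overlap the start of the YY1 core, so that a stretch can count for both. At least one core was found in 43.5% of the genes against 14.1% of all genes. The YY1 core was found in 7 of 33 complex I genes (21.2%) and 3 of 15 complex V genes, and in none of the few genes matched in complexes II (3), III (5) and IV (13). The ETS core was found in 12.1% of the genes in complex I, 66.7% in complex II, 40.0% in complex III, 23.1% in complex IV and 40.0% in complex V. A match describes letters in this window and does not show that a factor binds. The windows shown here, 80 bases before to 50 after the start, were chosen after their values were seen. They are from genes that recur in the results: Uqcr11 and Cox6b1, which were called higher with flavopiridol, Ndufs7, called lower with it, Ndufb7 and Ndufb8, called lower with JQ1, and Cox6b2, called higher with both drugs. Capitals mark the motif cores.
Uqcr11, chr10:80406772-80406901, minus strand, ETS and NRF1 cores: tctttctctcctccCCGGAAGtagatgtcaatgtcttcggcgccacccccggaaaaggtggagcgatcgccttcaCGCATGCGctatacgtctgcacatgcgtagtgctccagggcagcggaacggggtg
Cox6b1, chr7:30626065-30626194, minus strand, ETS core in reverse: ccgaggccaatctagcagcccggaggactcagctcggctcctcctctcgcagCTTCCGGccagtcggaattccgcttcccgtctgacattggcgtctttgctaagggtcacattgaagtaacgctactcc
Ndufs7, chr10:80249369-80249498, plus strand, YY1 core: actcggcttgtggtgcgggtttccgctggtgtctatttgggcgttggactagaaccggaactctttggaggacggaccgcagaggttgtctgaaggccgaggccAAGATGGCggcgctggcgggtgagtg
Ndufb7, chr8:83566678-83566807, plus strand, ETS core: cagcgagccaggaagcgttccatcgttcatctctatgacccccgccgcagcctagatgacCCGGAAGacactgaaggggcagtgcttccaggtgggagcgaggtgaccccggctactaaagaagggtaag
Ndufb8, chr19:44555393-44555522, minus strand, YY1 core: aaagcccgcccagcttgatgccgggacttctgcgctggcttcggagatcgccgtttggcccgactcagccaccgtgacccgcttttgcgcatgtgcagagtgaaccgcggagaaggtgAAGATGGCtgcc
Cox6b2, chr7:4753045-4753174, minus strand, no core in this window: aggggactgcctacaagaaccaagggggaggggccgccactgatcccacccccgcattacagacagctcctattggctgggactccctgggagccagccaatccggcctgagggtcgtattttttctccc

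The transcripts of these genes were abundant. Of the 85 genes, 80 were well above background in Cy3 on all 24 arrays and 73 of these 80 were among the brightest 25% of expressed genes, with a median at the 94.9th percentile of brightness. Cox6a2, the muscle isoform of subunit VIa, was above background on 13 arrays, and Cox7b2, Cox8b, Cox8c and Ndufa4l2 on none. The naive reference signal of the members had a median range of 0.33 (log2) over the 24 arrays, against 0.38 for all expressed genes. On the DMSO arrays the median ratio of the 80 genes was 0.35 to 0.55, on 500 nM JQ1 arrays 0.06 to 0.36, and on flavopiridol arrays 0.79 to 0.95 in Th1 and 0.46 to 0.58 in Th2 cells. All expressed genes had medians of 0.06 to 0.08 with DMSO, -0.02 to 0.04 with 500 nM JQ1 and -0.21 to -0.12 with flavopiridol.

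**Figure D1:**
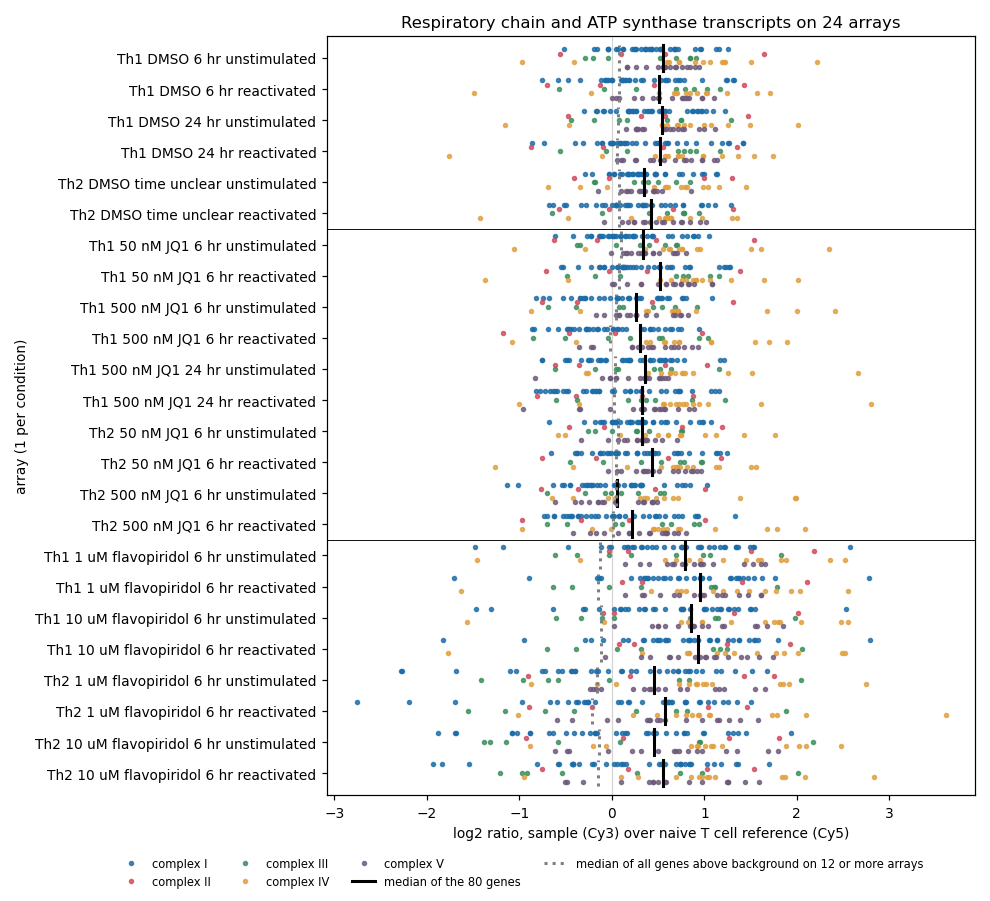
Log2 ratio of sample over naive reference (x axis) for the 80 genes above background on every array, with 1 array per line of the y axis. Points are genes coloured by complex, black bars their median and dotted grey segments the median of all expressed genes. The black bar lies right of the grey one on every array, and the gap is smallest on the unstimulated Th2 array with 500 nM JQ1, where the medians were 0.06 and 0.04.

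Under loess scaling, T helper cells without drug had more of most of these transcripts than naive cells. Over the 6 DMSO arrays 58 of 81 genes tested were called higher and 7 lower, where 44.3% and 34.4% of all genes tested were called. The median was 0.51 for the members and 0.08 for all genes. With centring on the median and no loess the members' median was -0.19 and that of all genes -0.36, with 15 members called higher and 42 lower (25.6% and 58.3% of all genes), so the direction relative to naive cells depends on the scaling while the members stayed 0.17 above the median of all genes. From the Th1 arrays alone 56 members were called higher and 6 lower, where 43.4% and 34.6% of all genes were called. Dye and cell type cannot be told apart here, and the spread of naive cells is not included. Differences between pairs and between activation states are also left out of the SE and p-values of this comparison.

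By complex, 16 of 17 genes of ATP synthase were called higher and none lower, 12 of 15 tested of complex IV, 6 of 8 of complex III, 22 of 37 of complex I and 2 of 4 of complex II, under loess. With median centring and no loess complex I had 5 genes called higher and 23 lower, complex II 1 and 2, complex III 1 and 3, complex IV 7 and 5 and complex V 1 and 9. Cox7a1, the heart and skeletal muscle isoform of subunit VIIa, had the largest value. Its ratio was 2.22 in unstimulated and 1.71 in reactivated Th1 cells at 6 hr, 2.01 and 1.74 at 24 hr, and 1.45 and 1.35 in Th2 cells. The mean of the 6 arrays was 1.75 ± 0.07 (SE of the fit, limma adjusted p = 2.1e-06), an SE that leaves out differences between pairs and activation states. All 6 arrays were above the naive level, and the Th1 arrays above the Th2 ones. Next were Sdhd, a membrane anchor of complex II (1.42 ± 0.06), Cox5a of complex IV (1.40 ± 0.06), and the accessory complex I subunits Ndufb8 (1.21 ± 0.06) and Ndufc2 (1.11 ± 0.07).

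Under loess 7 genes were called lower than in naive cells. With spike-in centring 2 of the 7 kept a negative value and 1, Cox7a2l, its call (3 and 1 with the spike-ins at 0). Cox7a2l, counted here in complex IV by its name, was at -0.97 and -1.49 in unstimulated and reactivated Th1 cells at 6 hr, -1.16 and -1.76 at 24 hr, and -0.69 and -1.43 in Th2 cells (mean -1.25 ± 0.06). Each reactivated array was below its unstimulated partner. Sdha, the flavoprotein of complex II, was at -0.60 ± 0.06, with all 6 arrays between -0.87 and -0.41, so that within complex II Sdhd and Sdhc (0.64 ± 0.07) were called higher, Sdha lower and Sdhb (0.02 ± 0.07) neither. The complex I core subunit Ndufs7 (-0.47 ± 0.07), the hinge protein of complex III Uqcrh (-0.45 ± 0.07) and the lung isoform Cox4i2 (-0.33 ± 0.07) were also lower on every array under loess. Their highest values over the settings tried were 0.08, 0.02 and 0.42, and that of Sdha 0.01. Among core subunits, Cox4i1 was at 0.69 ± 0.06, the Rieske protein Uqcrfs1 at 0.69 ± 0.08, the alpha subunit of ATP synthase Atp5a1 at 0.30 ± 0.06, and Ndufs1 at -0.05 ± 0.06, which did not pass (adjusted p = 0.495). Among other complex I core genes, Ndufs8 (0.54 ± 0.06), Ndufv1 (0.34 ± 0.07) and Ndufv2 (0.16 ± 0.06) were called higher under loess, and Ndufs3 was at 0.03 ± 0.06. With median centring and no loess Atp5a1 (-0.45), Ndufv1 (-0.35) and Ndufv2 (-0.45) were called lower.

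Reactivation left the group near its former level and moved single subunits in opposite directions. Of 81 genes, 6 were called higher and 9 lower, where 21.9% and 29.0% of all genes were called. Leaving out any of the 6 arrays left 3 called higher and 5 or 6 called lower, and Ndufa5, Atp5md and Ndufv2 lost their call each time. The median change was -0.03, against -0.05 for all genes, and 66 members did not pass. Of the 15 called genes 11 belonged to complex I, 4 higher and 7 lower, and none to complexes II and III. With the spike-ins at 0 after loess the counts were 16 higher and 2 lower at a members' median of 0.27 and an all-gene median of 0.24, so the split depends on the scaling.

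Ndufab1, the mitochondrial acyl carrier protein that also sits in complex I, went from 0.43 to 0.98 in Th1 cells at 6 hr, from 0.88 to 1.42 at 24 hr and from -0.03 to 1.29 in Th2 cells (0.81 ± 0.19, SE, 3 pairs, adjusted p = 0.013). All 3 reactivated arrays were above all 3 unstimulated ones. Atp5g1, 1 of 3 genes for the same c subunit of the ATP synthase ring, went from 0.26 to 0.98, from 0.56 to 0.97 and from -0.15 to 1.02 in the same pairs (0.77 ± 0.17, adjusted p = 0.0113), again without overlap. The other c subunit genes differed from it, with Atp5g3 at 0.36 ± 0.13 (adjusted p = 0.0651) and Atp5g2 at -0.27 ± 0.12 (adjusted p = 0.111), neither of which passed. Ndufa12 (0.59 ± 0.14), Ndufa5 (0.43 ± 0.12) and Atp5md (0.43 ± 0.15) were also higher.

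Ndufv3, a small subunit near the NADH site of complex I, fell from 1.13 to 0.15 and from 0.98 to 0.36 in Th1 cells at 6 and 24 hr and from 1.00 to 0.09 in Th2 cells (-0.83 ± 0.13, adjusted p = 0.00309). The unstimulated and reactivated arrays did not overlap. Ndufa6 (-0.75 ± 0.14), Ndufb10 (-0.64 ± 0.13), Cox7a2l (-0.62 ± 0.12) and Ndufb11 (-0.53 ± 0.13) were lower as well. Among complex I core genes, Ndufv2 (-0.43 ± 0.12) was called lower, and Ndufs1 (0.06), Ndufs3 (0.06), Ndufs8 (0.16), Ndufv1 (-0.26) and Ndufs7 (-0.35) did not pass. None of the 4 complex II genes passed, with values from -0.23 to -0.11. From the Th1 arrays alone, 3 members were called higher and 6 lower, where 19.3% and 26.2% of all genes were called.

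With 10 µM flavopiridol the members divided. Under loess, 33 of 81 genes were called higher and 8 lower, where 15.4% and 33.5% of all genes were called, and the median change was 0.28 against -0.22 for all genes. With the spike-ins as the reference no member was called higher and 50 were called lower without loess, where 0.185% and 91.4% of all genes were called. After loess the counts were 1 and 29, where 2.10% and 63.6% of all genes were called, and the members' median was -0.84 without and -0.50 after loess. It lay 0.82 and 0.51 above that of all genes, so their position relative to other transcripts kept its sign while the direction of the change itself depended on the scaling. At 1 µM 33 members were called higher and 6 lower, where 16.2% and 35.5% of all genes were called. All genes among the brightest 25%, where 73 members lay, had a median of -0.44 with 15.0% called higher and 42.8% lower.

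**Figure D2:**
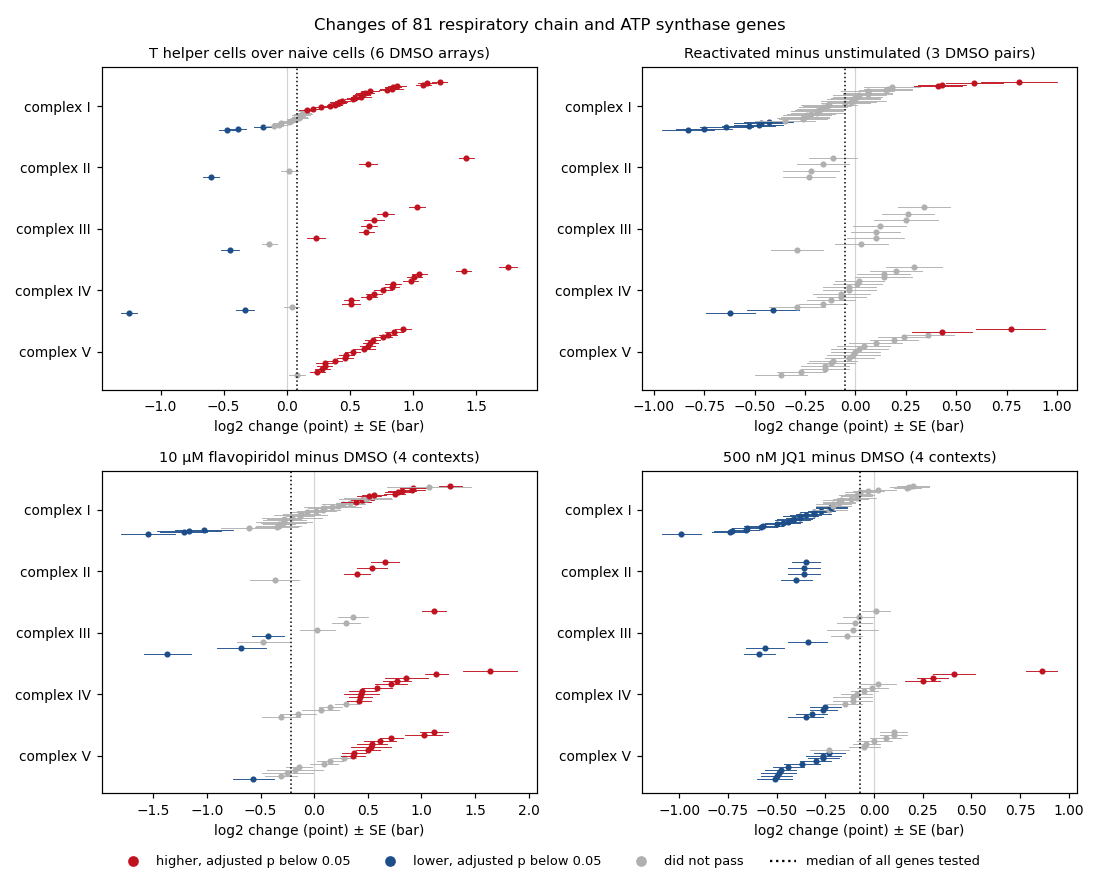
Log2 change (x axis, points with SE bars) of the 81 genes tested, grouped by complex on the y axis, in the 4 main comparisons, with the median of all genes as a dotted line. Red genes were called higher and blue genes lower under loess scaling. With 10 µM flavopiridol complexes IV and V carry most red points and the blue ones lie mainly in complexes I and III, a split that moved to 0 higher and 50 lower with spike-in centring. With 500 nM JQ1 41 genes are blue and 4, all of complex IV, are red.

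The called genes were unevenly spread over the complexes under loess scaling. In complex IV 10 of 15 genes tested were called higher and none lower (Cox6a2, above background on 13 of the 24 arrays, among the 10), in complex V 9 of 17 higher and 1 lower, in complex II 3 of 4 higher, in complex I 10 higher and 4 lower of 37, and in complex III 1 higher and 3 lower of 8. Within complex I, the 7 conserved core subunits had none called higher and 3 lower (median -0.33), while the other 30 had 10 higher and 1 lower (median 0.13). With spike-in centring no complex had a gene called higher, and the genes called lower were 7 in complex IV, 8 in complex V, 4 in complex II, 26 in complex I and 5 in complex III, with medians from -1.29 in complex I to -0.47 in complex V. The genes called lower were the complex I core subunits Ndufs3, Ndufs7 and Ndufv2, the accessory subunit Ndufb9, Uqcrfs1, Uqcrc2 (-0.68 ± 0.23) and Uqcrh (-0.43 ± 0.15) of complex III, and Atp5a1.

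Ndufs3, a core subunit of complex I, was between -0.04 and 0.18 on the 6 DMSO arrays, with a median of 0.00. With flavopiridol it was at -1.18 (unstimulated, 1 µM), -0.90 (reactivated, 1 µM), -1.31 (unstimulated, 10 µM) and -0.95 (reactivated, 10 µM) in Th1 cells, and at -2.27, -2.19, -1.88 and -1.93 in the same order in Th2 cells. All 8 flavopiridol arrays were below all DMSO arrays and the Th2 arrays below the Th1 ones (10 µM change -1.55 ± 0.25, SE, 4 contexts, adjusted p = 0.0011).

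Uqcrfs1, the Rieske iron-sulfur protein that passes electrons on within complex III, was at 0.84, 0.89, 0.69 and 0.77 in the 4 control contexts (Th1 unstimulated and reactivated, then Th2) and at -0.11, 0.06, -1.32 and -0.92 with 10 µM flavopiridol (-1.37 ± 0.22, adjusted p = 0.00121). The 4 treated arrays lay below the 4 controls without overlap. Ndufs7, which holds the last iron-sulfur cluster before ubiquinone, was at -0.52, -0.58, -0.21 and -0.64 in the control contexts and at -1.47, -1.83, -1.68 and -1.84 with the drug (-1.22 ± 0.22, adjusted p = 0.00197), also without overlap. Ndufv2 (-1.17 ± 0.30, adjusted p = 0.0108) and Ndufb9 (-1.03 ± 0.27, adjusted p = 0.0122) also passed, with lower values in Th2 than in Th1 cells in both states, a difference that was not called. Ndufs3, Ndufs7 and Uqcrfs1 were called lower under all 14 settings tried with all arrays of a cell type, every scaling included.

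Cox6b2, known as the testis isoform of subunit VIb, had the largest rise under loess scaling. It was at 1.21, 0.80, 1.16 and 0.59 in the 4 control contexts and at 2.55, 2.49, 2.48 and 2.84 with 10 µM flavopiridol (1.64 ± 0.25, adjusted p = 0.000763). Every treated array was above every control. Its ubiquitous counterpart Cox6b1 was at 0.90, 0.92, 0.61 and 0.64 and at 2.05, 1.86, 1.88 and 1.84 with the drug (1.14 ± 0.11, adjusted p = 9.5e-05), again without overlap. The complex I subunit Ndufa10 changed by 1.27 ± 0.11 (adjusted p = 6.4e-05), Uqcr11 of complex III by 1.12 ± 0.11 and Atp5d, the delta subunit of ATP synthase, by 1.12 ± 0.13. With spike-in centring and no loess these values were -0.25 for Cox6b2, -0.54 for Cox6b1, -0.52 for Ndufa10, 0.07 for Uqcr11 and -0.10 for Atp5d, so in these 5 genes the rise is relative to the bulk of transcripts.

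The other core genes were spread between these ends. Atp5a1 fell by 0.57 (SE 0.19, adjusted p = 0.0355), Cox4i1 was at 0.30 ± 0.11 (adjusted p = 0.0509), Ndufs1 at -0.33 ± 0.15 (adjusted p = 0.102), Ndufs8 at 0.50 ± 0.22 and Ndufv1 at -0.28 ± 0.16, and of these Atp5a1 alone passed. In complex II, Sdha (0.66 ± 0.13), Sdhc (0.54 ± 0.14) and Sdhd (0.40 ± 0.12) were called higher under loess, with -0.67, -1.19 and -0.87 under spike-in centring, whereas Sdhb, its iron-sulfur subunit, was at -0.37 ± 0.23 and did not pass. Among the c subunit genes Atp5g1 was called higher (0.53 ± 0.19, adjusted p = 0.0467) under loess, and Atp5g2 (0.28 ± 0.11) and Atp5g3 (-0.31 ± 0.15) did not pass.

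Genes with several probes limit how far these values go. For 22 members the array held 29 further probes, all above background on every array. At 10 µM flavopiridol 25 of the 29 had a higher change than the brightest probe of their gene, by a median of 0.27 over the 29, and 6 had the opposite sign, in Atp5c1, Cox7a2l, Ndufa5, Ndufv3 and Sdhb. None of these 5 genes was called with the brightest probe. With 500 nM JQ1 the further probes lay on both sides (14 above, 14 below, 1 equal), with 1 opposite sign in Ndufb11. Using the Th1 arrays alone, 20 members were called higher and 3 lower with 10 µM flavopiridol, where 12% and 25.1% of all genes were called. Using the Th2 arrays alone the counts were 8 and 7, where 4.25% and 9.90% were called, so the share called lower there was close to that of all genes. With slide as a random block the counts were 25 and 5, where 10.3% and 23.4% of all genes were. With only the 10 µM and DMSO arrays in the fit, 20 of the 33 genes called higher and 5 of the 8 called lower kept their call. Leaving out the unstimulated Th2 DMSO array, 5 members were called lower, and without the reactivated 6 hr Th1 DMSO array 11.

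**Figure D3:**
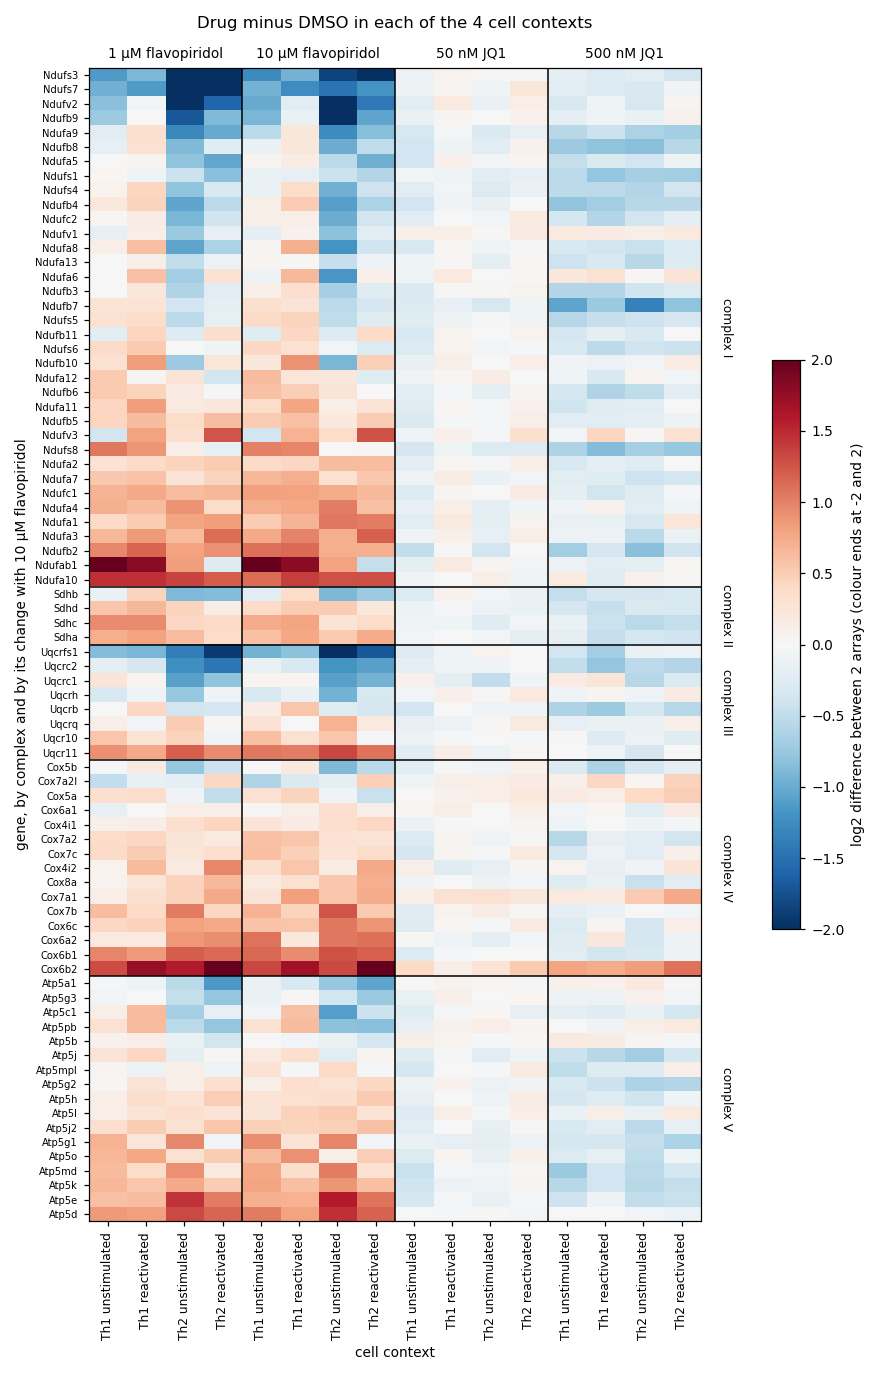
Difference in log2 ratio between each drug array and the DMSO array of the same cell type and activation state (columns) for 80 of the 81 genes (lines), sorted within each complex by the change with 10 µM flavopiridol. Red is higher and blue lower with the drug under loess scaling, and the colour ends at -2 and 2. The blue band at the top of complex I is deeper in Th2 than in Th1 cells, Cox6b2 is red in all columns of flavopiridol and of 500 nM JQ1, and most genes are pale blue with 500 nM JQ1.

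With 500 nM JQ1 the change was smaller and mostly downward. Of 81 genes 41 were called lower and 4 higher, where 29.9% and 17.7% of all genes were called, at a median of -0.23 against -0.07 for all genes. With spike-in centring no member was called higher and 58 were called lower (0.891% and 42.8% of all genes), and with the spike-ins at 0 after loess none and 41 (0.682% and 34.6%). All 41 kept their sign under every scaling in which they were measured, while 3 of the 4 genes called higher had the opposite sign with the spike-ins as the reference. The genes called lower were 20 of 37 in complex I, 4 of 4 in complex II, 3 of 8 in complex III, 4 of 15 in complex IV and 10 of 17 in complex V. All 4 genes called higher belonged to complex IV. With only the 500 nM and DMSO arrays in the fit, 31 of the 41 genes called lower and 2 of the 4 called higher kept their call. At 50 nM limma called none, where 0.256% of all genes were called higher and 0.0852% lower, and the median change was -0.04. At an unadjusted p below 0.05 there were 5 members, 2 of them higher, and the share of all genes at that threshold was not counted.

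Ndufb7, an accessory subunit of complex I, was at 0.52, 0.68, 0.34 and 0.37 in the 4 control contexts, at 0.25, 0.52, 0.01 and 0.27 with 50 nM JQ1 and at -0.53, -0.08, -1.01 and -0.44 with 500 nM (-0.99 ± 0.10, SE, 4 contexts, adjusted p = 2.6e-05). The 500 nM arrays lay below all others, and in each context the 50 nM array lay between DMSO and 500 nM. Ndufb8 was at 1.26, 1.32, 1.14 and 1.04 with DMSO and at 0.53, 0.50, 0.31 and 0.47 with 500 nM (-0.74 ± 0.09, adjusted p = 8.9e-05), and the core subunit Ndufs8 at 0.48, 0.58, 0.47 and 0.77 and then -0.14, -0.28, -0.20 and 0.01 (-0.73 ± 0.09, adjusted p = 7.6e-05). Neither gene overlapped between the groups. Ndufs1, the largest iron-sulfur subunit of complex I, was at -0.16, -0.05, 0.02 and 0.16 with DMSO and at -0.68, -0.84, -0.64 and -0.53 with 500 nM (-0.66 ± 0.07, adjusted p = 5.3e-05), and Ndufb4 changed by -0.65 ± 0.08. These 5 genes were called lower under all 14 settings.

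The 4 genes of complex II changed by similar amounts with 500 nM JQ1. Sdhc was at -0.40 ± 0.08, Sdha at -0.36 ± 0.08, Sdhb at -0.36 ± 0.08 and Sdhd at -0.35 ± 0.07, with each of the 16 pair differences below 0. Uqcrc2, a core protein of complex III, changed by -0.59 ± 0.08 and Uqcrfs1 by -0.34 ± 0.10. Among other complex I core genes, Ndufs3 (-0.27 ± 0.07) and Ndufs7 (-0.22 ± 0.08) were called lower, and Ndufv2 (-0.17 ± 0.09) and Ndufv1 (0.17 ± 0.07) did not pass. In ATP synthase Atp5md (-0.51 ± 0.09), Atp5g2 (-0.48 ± 0.08) and Atp5g1 (-0.44 ± 0.08) were called lower, and Atp5g3 (-0.05 ± 0.08) and Atp5a1 (0.10 ± 0.07) did not pass. Cox4i1 was at -0.05 ± 0.07.

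Cox6b2 was the gene with the largest rise with 500 nM JQ1 too. It was at 1.21, 0.80, 1.16 and 0.59 with DMSO, at 1.61, 0.91, 1.43 and 1.13 with 50 nM and at 2.00, 1.55, 1.99 and 1.68 with 500 nM (0.86 ± 0.08, adjusted p = 2.5e-05). The 500 nM arrays were above all 4 controls, with 50 nM between them in each context, where the 50 nM change of 0.33 ± 0.08 did not pass (adjusted p = 0.131). With spike-in centring the 500 nM value was 0.30, still above 0 but not called. Cox7a1 (0.41 ± 0.11), Cox5a (0.30 ± 0.08) and Cox7a2l (0.25 ± 0.09) were the other 3 genes called higher, and their signs turned with the spike-ins as the reference.

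The Th1 arrays at 6 hr shared the slide of their controls, and from the Th1 arrays alone 12 members were called lower and 1 higher, where 15.1% and 8.51% of all genes were called, so the share of members called lower was no larger than that of all genes. From the Th2 arrays alone 21 and 3 were called, where 17.6% and 9.80% of all genes were, and all 41 members kept a negative sign in each. Separate arrays at 24 hr, with their own controls on the same slide, allowed a further look without a test. The labels do not say whether their cells came from another culture than those at 6 hr. Of the 41 members called lower at 6 hr, 39 were lower in unstimulated and 38 in reactivated Th1 cells at 24 hr, and 37 (90.2%) in both, where 79.7% of all genes called lower were lower in both. Cox8a was above its control in both states at 24 hr. All 4 members called higher were higher in both 24 hr pairs, as were 81.4% of all genes called higher. In unstimulated cells 1 member differed more than 2-fold at 24 hr (7.21% of all genes did) and in reactivated cells 2 did (7.98%). These were Atp5e, the epsilon subunit of ATP synthase, at -1.09 and -1.22 in these pairs, and Cox7a1 at 1.06 in the reactivated pair, named after their values were seen.

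**Figure D4:**
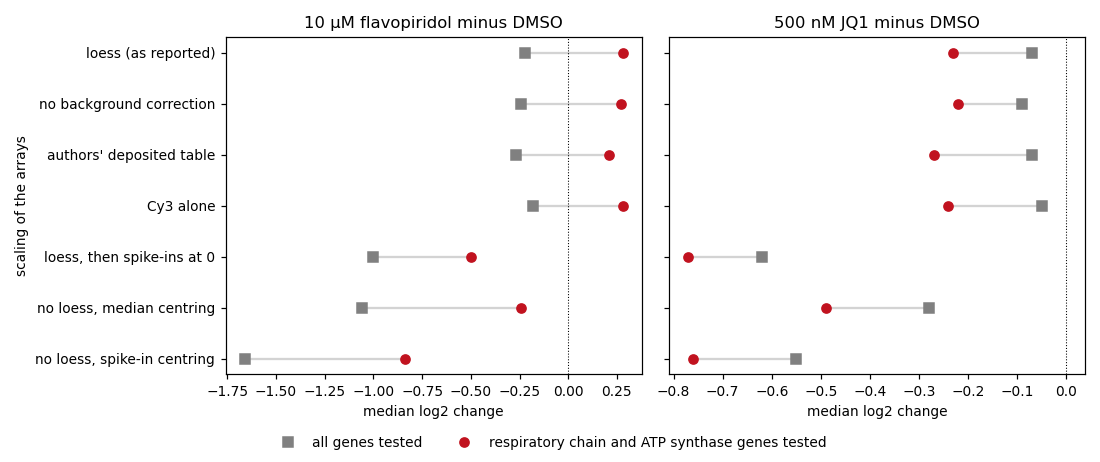
Median log2 change (x axis) of the members (red circles) and of all genes tested (grey squares) with 10 µM flavopiridol (left) and 500 nM JQ1 (right) under the scalings of the y axis. With flavopiridol both medians move with the scaling, the members' from 0.28 down to -0.84, and the members stay 0.46 to 0.82 above all genes. With JQ1 the members are below 0 and their median differs from that of all genes by -0.21 to -0.14 under each scaling.

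The drug effects were then compared between activation states and between cell types by testing the difference itself. For flavopiridol 1 member was called for a dependence on reactivation, where 8.90% of all genes were called for a larger and 6.94% for a smaller value in reactivated cells. This was Atp5g1, whose 10 µM change was 0.93 in unstimulated and 0.28 in reactivated Th1 cells and 0.98 and -0.06 in Th2 cells (difference -0.84 ± 0.23, SE, adjusted p = 0.0468). The call was lost without background correction, under each other scaling, with Cy3 alone, with the deposited table and in 11 of 12 fits that left out an array, with a negative value in each. Its levels with 10 µM flavopiridol, 1.19, 1.26, 0.82 and 0.97, lay close to the reactivated controls at 0.98 and 1.02 and above the unstimulated controls at 0.26 and -0.15. For JQ1 limma called no member, where 4.50% and 5.64% of all genes were called. At an unadjusted p below 0.05 there were 5 members higher and 0 lower, and the share of all genes at that threshold was not counted. With spike-in centring 79 members were called lower, as were 78.1% of all genes, and the reactivated Th1 array whose spike-ins lay highest enters this fit.

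Between Th1 and Th2 cells limma called no member for flavopiridol, where 0% of all genes were called for a higher and 0.0161% for a lower value in Th1, and none for JQ1, where 0% were called in either direction. At an unadjusted p below 0.05, 26 members had a higher flavopiridol change in Th1 cells and 1 a lower one, and for JQ1 there was 1 in each direction. The share of all genes at this threshold was not counted, so these counts cannot be called particular to the members. The median difference for flavopiridol was 0.32 for the members, 0.75 for the 7 complex I core subunits, each of which was higher in Th1, and -0.02 for all genes. The medians of related lists were 0.81 for 7 electron carriers, 0.56 for 76 mitochondrial ribosomal protein genes (71 above 0), 0.38 for 14 tricarboxylic acid cycle genes, 0.20 for 42 assembly factors, -0.17 for 13 regulators of mitochondrial biogenesis and -0.22 for 79 cytosolic ribosomal protein genes. Complex IV was at -0.17 and complex V at -0.04. Atp5pb of the ATP synthase stalk, picked after the values were seen, had the smallest adjusted p (1.29 ± 0.22, adjusted p = 0.18). With the spike-ins as the reference 46 (no loess) or 21 (after loess) members were called higher in Th1 cells, where 11.3% and 3.48% of all genes were called. The Th1 and Th2 flavopiridol arrays were on different slides, so slide and cell type cannot be told apart in this difference.

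The DMSO arrays labelled Th1 and Th2 were compared without drug, where the reactivated array labelled Th2 carried markers of both cell types. No member differed more than 2-fold between the 6 hr Th1 and the Th2 DMSO arrays, where 6.81% of all genes did in unstimulated and 4.84% in reactivated cells, with 1 array on each side and no test. The members' medians were 0.12 and 0.09 higher in Th1. In unstimulated cells the differences ran from -0.54 for Uqcrc1, a core protein of complex III, to 0.76 for Cox7a1, and in reactivated cells from -0.45 for Ndufa4 to 0.52 for Ndufb2, extremes that were named from their values.

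The isoform pairs of complex IV are given side by side, and no difference between isoforms was tested. Cox6b1 was called higher with 10 µM flavopiridol and lower with 500 nM JQ1 (-0.25 ± 0.08), while Cox6b2 was called higher with both under loess scaling. Cox7a2, the widespread form of subunit VIIa, was at 0.42 ± 0.11 with flavopiridol and -0.32 ± 0.08 with JQ1, and Cox7a1 at 0.59 ± 0.14 and 0.41 ± 0.11, all 4 values called under loess. The values for flavopiridol were -0.77 and -1.12 with spike-in centring. Cox4i2 was called higher with flavopiridol (0.44 ± 0.16, or -1.30 with spike-in centring) and was at 0.02 ± 0.09 with JQ1. Cox6a1 passed with neither drug (0.15 ± 0.11 and -0.01 ± 0.08), and its muscle counterpart Cox6a2 was above background on 13 of the 24 arrays, so that no size of change is given. Cox8a was at 0.45 ± 0.13 with flavopiridol (lowest value over the settings tried -0.33) and -0.26 ± 0.07 with JQ1, with Cox8b not above background on any array. Ndufa4, counted here in complex I by its name and now placed in complex IV, was at 0.78 ± 0.12 with flavopiridol (lowest value over the settings tried -0.6). With JQ1 it was at -0.07 ± 0.08, and Ndufa4l2 was not above background on any array.

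Genes that build, feed or regulate the respiratory chain were read from lists beside the members. On reactivation 34 of 77 mitochondrial ribosomal protein genes were called higher and 5 lower (median 0.29), 19 of 42 assembly factors higher and 8 lower (0.26), 4 of 7 electron carriers higher and 2 lower (0.37), and 3 of 79 cytosolic ribosomal protein genes higher and none lower (median 0.00). Of all genes 21.9% were called higher and 29.0% lower. Called rises included those of the complex I assembly factor Ndufaf4 (2.98), the copper chaperone of complex IV Sco2 (2.66), the ribosomal protein gene Mrps18b (2.15) and cytochrome c, Cycs (1.52). Called falls included those of Mrpl14 (-1.71), the complex III assembly factor Uqcc3 (-1.24) and Etfdh (-1.2), which passes electrons from fatty acid oxidation to ubiquinone. In comparison with naive cells 44.3% of all genes were called higher and 34.4% lower. There 56 of 77 mitochondrial ribosomal protein genes were called higher and 9 lower (0.47), whereas of 79 cytosolic ones 5 were higher and 61 lower (-0.54). With median centring and no loess these counts were 23 and 32 (-0.10) for the mitochondrial and 2 and 76 (-1.49) for the cytosolic genes, where 25.6% and 58.3% of all genes were called. With spike-in centring they were 73 and 1 (1.13) and 16 and 42 (-0.26) in the same order, where 77.8% and 12.3% of all genes were called. With the spike-ins at 0 after loess they were 71 and 2 (0.94) and 26 and 28 (-0.08), where 69.3% and 16.6% of all genes were called. On reactivation the medians of mitochondrial ribosomal protein genes, assembly factors and electron carriers were above 0 under each of the 4 scalings, the lowest being 0.22 for the assembly factors.

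With 10 µM flavopiridol 45 of 76 mitochondrial ribosomal protein genes were called lower and 6 higher (median -0.98), 16 of 42 assembly factors lower and 4 higher (-0.40), and 6 of 13 regulators of mitochondrial biogenesis lower and none higher (-0.39). All genes were called lower in 33.5% and higher in 15.4%, so the share of assembly factors called lower was close to that of all genes. Of 79 cytosolic ribosomal protein genes 5 were called higher and 10 lower (median 0.01). With median centring the counts were 38 and 3 (0.33), where 2.26% and 67.1% of all genes were called. They were none and 18 under spike-in centring (-0.27). With the spike-ins at 0 after loess they were none and 67 (-0.77), where 2.1% and 63.6% of all genes were called. The tricarboxylic acid cycle genes were divided, with 4 of 14 higher and 3 lower. With spike-in centring none of these lists had a gene called higher, and 73 of 76 mitochondrial ribosomal protein genes were called lower. Under this scaling 0.185% of all genes were called higher and 91.4% lower, so the share called lower was near that of all genes. The median of these mitochondrial genes was then -2.58, against -1.66 for all genes. Mrpl43 was at -3.37, Ndufaf1 at -2.07, the GABP subunit gene Gabpb1 at -1.56 and the mitochondrial DNA packaging factor Tfam at -1.23, and called rises under loess included those of Mrpl42 (1.54) and Ndufaf5 (1.39). With 500 nM JQ1 54 of 77 mitochondrial ribosomal protein genes were called lower and 4 higher (-0.41), and 21 of 42 assembly factors lower and 6 higher (-0.24), while of 79 cytosolic ribosomal protein genes 3 were lower and 11 higher (0.06), or 3 and 0 with spike-in centring (-0.42). Of all genes 29.9% were called lower and 17.7% higher. Of 13 regulators of mitochondrial biogenesis 4 were called higher and 4 lower (median 0.02), with Esrra, a nuclear receptor gene, at 0.52, Nrf1 at 0.49, Gabpa at -0.63 and Tfam at -0.52. The largest changes of mitochondrial ribosomal protein genes were Mrpl53 at -1.32 and Mrps6 at 0.95. Spike-in centring left none of the 13 regulators called higher and 5 lower, where 0.891% and 42.8% of all genes were called, so the share called lower was near that of all genes.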

How the data were processed

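The authors hybridised Cy3-labelled sample and Cy5-labelled naive reference RNA to 2-colour Agilent arrays and deposited the Feature Extraction (version 10.7.1.1) output of each array, which holds spot intensity values that are not yet normalized (grid built on mm9), and a table of processed log2 ratios without stated scaling. Median intensities were read with limma 3.58.1 (R 4.3.3), corrected with normexp (offset 50) and loess-adjusted within arrays, and control and outlier-flagged spots were left out. The software's own log ratio and p-value columns were not used. The deposited log2 table (34710 probes, correlation 0.981 to 0.996 with these values, array medians -0.017 to 0.014) served as an alternative. Its direction matched the Cy3 over Cy5 ratio, and its scaling stays unknown. Accessions of 26425 of 55681 probes gave 20022 gene symbols through RefSeq, and 29256 probes had none. Genes well above background in Cy3 on at least 3 arrays of a fit were tested with lmFit and eBayes. The arrays lay on 3 slides of 1 scan batch. Drug fits held DMSO and both doses of the drug, with context as a block. The reactivation and naive fits had the 3 pairs as a block. Of the study's methods, the rank-sum test was not used, and the fold thresholds applied to the mouse drug data carry no error. Limma over contexts took their place. Genes named in the text were the 5 largest called rises and falls per comparison that moved alike in every pair, the 2 largest called dependences, fixed core subunits (apart from a gene that is not reported here) and isoform pairs, and the 2 largest called changes each way of each related list. Members, lists and tests were chosen with earlier results of these data known. Fits were tested on simulated data. The fits on arrays of a single cell type were added after the data were seen.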

Additional observations from a re-analysis of the deposited data

Results flagged for a closer look

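The effect of 10 µM flavopiridol on Atp5g1, which encodes the c subunit of the ATP synthase ring, differed between reactivated and unstimulated cells by -0.84 (SE 0.23, limma adjusted p = 0.0468), a difference that was tested itself. The pair differences were 0.93 and 0.98 in unstimulated Th1 and Th2 cells and 0.28 and -0.06 in reactivated ones. The call was lost with 6 of the alternatives (no background correction, each scaling without loess, the spike-ins at 0, Cy3 alone and the deposited table) and in 11 of 12 fits that left out an array, all but the fit without the reactivated 6 hr Th1 DMSO array. The value was below 0 in each of these fits.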

How the results depend on the processing

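On reactivation, higher and lower counts of 6 and 9 became 3 higher with median centring, 15 and 1 with spike-in centring, and 16 and 2 with the spike-ins at 0 after loess, and 3 were higher in Th1 arrays alone. Against naive cells, 58 and 7 became 15 and 42 with median centring, with 1 lower under spike-in centring and 1 with the spike-ins at 0. With flavopiridol, 33 and 8 became 9 and 19 (median centring), 0 and 50 (spike-in centring), 1 and 29 (spike-ins at 0), 20 and 3 (Th1 arrays), 8 higher (Th2 arrays), and 20 and 5 (10 µM and DMSO only), with 5 lower under the slide block. With JQ1, the 4 higher became 1 (median centring), 0 (spike-in centring), 0 (spike-ins at 0), 7 (mean of all probes), 1 (Th1 arrays), 2 (500 nM and DMSO only), 1 (no block) and 0 (50 nM), and the 41 lower became 12 (Th1 arrays), 21 (Th2 arrays), 14 (no block) and 0 (50 nM). The reactivation dependence of flavopiridol went from 0 higher and 1 lower to 0 lower with no background correction, median centring, spike-in centring, spike-ins at 0, Cy3 alone and the deposited table, 1 higher with the mean of all probes and with no filter, and 5 and 2 with the slide block. That of JQ1 went from 0 to 79 lower (spike-in centring) and 76 (spike-ins at 0), and the cell type dependence of flavopiridol from 0 to 46 and 21 higher.

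Leaving out each array in turn gave 3 to 3 higher and 5 to 6 lower on reactivation, 53 to 57 and 6 to 7 against naive cells, 26 to 37 and 5 to 11 with flavopiridol, 3 to 5 and 33 to 43 with JQ1, and 0 to 2 in each direction for the reactivation dependence of flavopiridol. The other dependences kept 0 calls.

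Members called in the opposite direction against naive cells numbered 20 (median centring), 3 (spike-in centring) and 1 (spike-ins at 0), and those with flavopiridol 2 (median centring) and 11 (spike-in centring). Of the genes named by rule these were, against naive cells with median centring, Atp5a1 (-0.45), Ndufv1 (-0.35), Ndufv2 (-0.45), Atp5g2 (-0.59), Cox6a1 (-0.26) and Cox8a (-0.32), and with spike-in centring Cox4i2 (0.42). With flavopiridol they were Cox4i2 (-0.69) and Cox7a1 (-0.52) with median centring, and with spike-in centring Cox6b1 (-0.54), Sdha (-0.67), Sdhc (-1.19), Sdhd (-0.87), Cox4i2 (-1.30), Cox7a1 (-1.12) and Cox7a2 (-0.77). The cause of these shifts beyond the scaling itself was not tested. Of the other values of single genes, 2237 kept direction and call, 309 lost the call and 65 gained one. Cy3 alone could not serve the naive comparison, and Th2 arrays alone could not be fitted for reactivation or the naive comparison. The labels give no replicate numbers shared between conditions, so none served as a block, and the fits paired arrays by cell context or time only. Signal over background was a limit for Cox6a2 and the 4 genes below it. Among the 80 genes above it on all arrays, Cox4i2 was dim, with a log2 Cy3 signal of 7.2 to 7.69 on DMSO arrays. Cox7b2, which was not above background on any array, had 5.87 to 6.04 there.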
